A study of Mus musculus with 28 samples.

Results

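The 40 genes described here are interferon-stimulated genes: 30 genes of the type I interferon response and 10 GTPases best known as targets of interferon gamma. They were taken by symbol from a list chosen with earlier results of these data known. All 40 had a row in each of 5 mouse adipose RNA-seq tables, the largest of which holds 55891 genes. The GTPases are 4 guanylate-binding proteins (Gbp2, Gbp3, Gbp5 and Gbp7) and 6 immunity-related GTPases (Irgm1, Irgm2, Igtp, Iigp1, Tgtp1 and Tgtp2). The type I genes are 5 regulators, 7 sensors of RNA or DNA, 13 antiviral effectors and 5 other induced genes.

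Type I interferons bind a receptor made of Ifnar1 and Ifnar2, and the signal reaches the nucleus as a complex that includes Stat2 and Irf9 and binds the interferon-stimulated response element (ISRE). Interferon gamma binds Ifngr1 and Ifngr2 and acts on genes with a gamma-activated site (GAS), and through Irf1 on the ISRE. Adipose tissue holds adipocytes, vessels, macrophages and lymphocytes, and many interferon-stimulated genes keep a basal level there without infection.

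The libraries came from adipose tissue of control (WT) mice and of mice with a knockout of Fgf13, an intracellular member of the fibroblast growth factor family, in adipocytes (Fgf13∆Adipo). An inducible knockout gave epididymal (ieWAT) and subcutaneous (isWAT) white fat, and a constitutive knockout gave subcutaneous white (sWAT) and brown (BAT) fat. Controls and knockouts of these 4 sets were obese after 20 weeks of high fat diet. A second epididymal set (eWAT) carries the same genotype labels, with its knockout form and diet not stated. The labels give no Cre line, age or sex. There were 3 controls and 3 knockouts in ieWAT, sWAT and eWAT, and 3 controls and 2 knockouts in isWAT and BAT, 28 libraries in all. Nothing in the labels says that libraries came from separate animals, so p-values measure only the spread between these libraries.

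Values are CPM (read counts scaled to a common library total) in 4 sets and FPKM (fragments scaled to library size and transcript length) in eWAT. Depth was 13490948 to 48812592 reads per library in the CPM sets and is unknown in eWAT. Fgf13 was lower in every knockout than in every control of the 4 CPM sets, at 22.6 to 33.4 CPM against 39.7 to 51.4 in ieWAT, 31.3 to 35.3 against 53.0 to 69.2 in isWAT, 43.0 to 84.0 against 106 to 113 in sWAT and 0.246 to 1.87 against 3.01 to 17.6 in BAT, with limma adjusted p from 0.179 to 1. In eWAT it was 17.6 to 27.02 FPKM against 12.9 to 27.6 (0.19 ± 0.28, adjusted p 0.677), so the knockouts of that set are called libraries labelled knockout. Some libraries stood apart in other tissue transcripts. The skeletal muscle gene Acta1 was 479 and 536 CPM in sWAT knockouts 2 and 3 and 13.8 to 25.7 in the controls, and it ranged from 0.431 to 1707 CPM in BAT. Lymphocyte markers were high in sWAT control 3 and eWAT control 1.

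The promoters of 7 members are shown because they hold the elements through which the interferon classes act. Each is the 120 bases before the transcription start in RefSeq (GRCm38.p6), 5′ to 3′ on the gene's strand: Isg15 at chr4:156200819-156200938 on the minus strand, Oas1a at chr5:120907526-120907645 on the minus strand, Ifi207 at chr1:173741810-173741929 on the minus strand, Gbp7 at chr3:142530216-142530335 on the plus strand, Igtp at chr11:58199436-58199555 on the plus strand, Irgm2 at chr11:58214857-58214976 on the plus strand and Tgtp2 at chr11:49064213-49064332 on the minus strand. None of the 7 overlaps an exon of GENCODE M21. Capitals mark matches to the ISRE core (2 copies of GAAA with 2 free bases between them) or to the GAS letters TTCNNNGAA, searched on both strands.
Isg15: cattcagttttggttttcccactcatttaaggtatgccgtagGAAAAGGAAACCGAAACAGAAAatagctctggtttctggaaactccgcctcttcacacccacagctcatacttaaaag
Oas1a: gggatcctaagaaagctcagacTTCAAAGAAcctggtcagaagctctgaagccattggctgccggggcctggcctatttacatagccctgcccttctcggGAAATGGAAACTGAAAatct
Ifi207: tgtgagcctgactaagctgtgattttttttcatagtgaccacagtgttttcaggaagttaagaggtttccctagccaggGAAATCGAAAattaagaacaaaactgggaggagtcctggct
Gbp7: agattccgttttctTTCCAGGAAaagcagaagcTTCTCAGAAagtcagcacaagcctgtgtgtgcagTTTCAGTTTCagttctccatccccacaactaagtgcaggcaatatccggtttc
Igtp: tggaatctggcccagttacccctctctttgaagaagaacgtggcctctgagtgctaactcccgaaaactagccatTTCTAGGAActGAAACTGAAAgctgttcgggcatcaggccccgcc
Irgm2: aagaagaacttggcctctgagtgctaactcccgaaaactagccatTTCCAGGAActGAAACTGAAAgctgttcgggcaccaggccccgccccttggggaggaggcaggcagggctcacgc
Tgtp2: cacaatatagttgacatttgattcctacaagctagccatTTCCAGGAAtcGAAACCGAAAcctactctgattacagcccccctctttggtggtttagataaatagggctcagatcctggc

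In 4 of the 6 immunity-related GTPases the GAS letters lay just upstream of the ISRE core without overlap, with first bases at -45 and -34 from the start in Igtp, -75 and -64 in Irgm2, -88 and -77 in Tgtp1 and -81 and -70 in Tgtp2. The Irgm1 entry held 2 overlapping ISRE cores and no GAS letters, but all 120 bases before its start lie in GENCODE M21 exons. Iigp1 has no entry. RefSeq promoter entries, from 250 bases before to 50 after a start, matched 30 members, 21 type I genes and 9 GTPases. In 25 of the 34 entries of members, the bases after the start matched a GENCODE transcript of the gene. The ISRE core was found in 13 of the 21 and 9 of the 9, and in 3.99% of 27025 genes. The GAS letters were found in 4 of the 21 and 6 of the 9, and in 9.55% of those genes. A match describes letters and is no measure of binding.

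In control fat Ifi27, a small membrane protein of mitochondria and the nuclear envelope, was the most abundant member of all 5 sets. Divided by exon length, it had 801 ± 36.4 CPM per kilobase in BAT, 273 ± 28.2 in sWAT, 256 ± 14.9 in isWAT and 206 ± 15.1 in ieWAT, and 279.8 ± 25.1 FPKM in eWAT (mean ± SD, n = 3). Bst2, the tetherin that holds budding virions on the cell, ranked 2 in all 5 sets, with 39.4 ± 9.39, 73.3 ± 2.87, 78.3 ± 7.97 and 66.5 ± 4.09 CPM per kilobase and 81.9 ± 8.39 FPKM. The control libraries of Ifi27, of Bst2 and of the gene ranked 3 did not overlap in any set. Gbp2 led the GTPases, at rank 3 in isWAT, sWAT and BAT, 4 in ieWAT and 5 in eWAT. The lowest member was Ifi44 in ieWAT (0.366 CPM per kilobase), Oas3 in isWAT (0.250) and Tgtp1 in sWAT (0.0535), BAT (0.0985) and eWAT (0.487 FPKM). The dynamin-like GTPases Mx1 and Mx2 and the oligoadenylate synthetase Oas3 were too low for a test in BAT, where Mx1 had 10, 3 and 10 reads in controls and 2 and 1 in knockouts.

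Most members had higher means in knockouts of the inducible sets and lower means in knockouts of the constitutive sets, and limma called no member in any of these 4 sets. In ieWAT 37 of 40 tested members had a log2 difference above 0, as did 55.8% of all genes tested. In isWAT 31 of 40 did (43.9% of genes). In sWAT the number was 3 of 39 (37.2%), with 3 of 37 in BAT (23.6%) and 16 of 38 in eWAT (46.4%). Of 36 members tested in the 4 CPM sets, 25 (69.4%) lay above 0 in ieWAT and isWAT and below 0 in sWAT and BAT, as did 11.65% of 12576 genes. This count was not repeated without isWAT knockout 1, without which the type I median difference of isWAT was -0.042. The DNA sensors Ifi204 and Ifi207 lay below 0 in all 5 sets, and no member lay above 0 in all 5. Because the list was chosen with earlier results of these data known, these counts are not independent support.

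**Figure D1:**
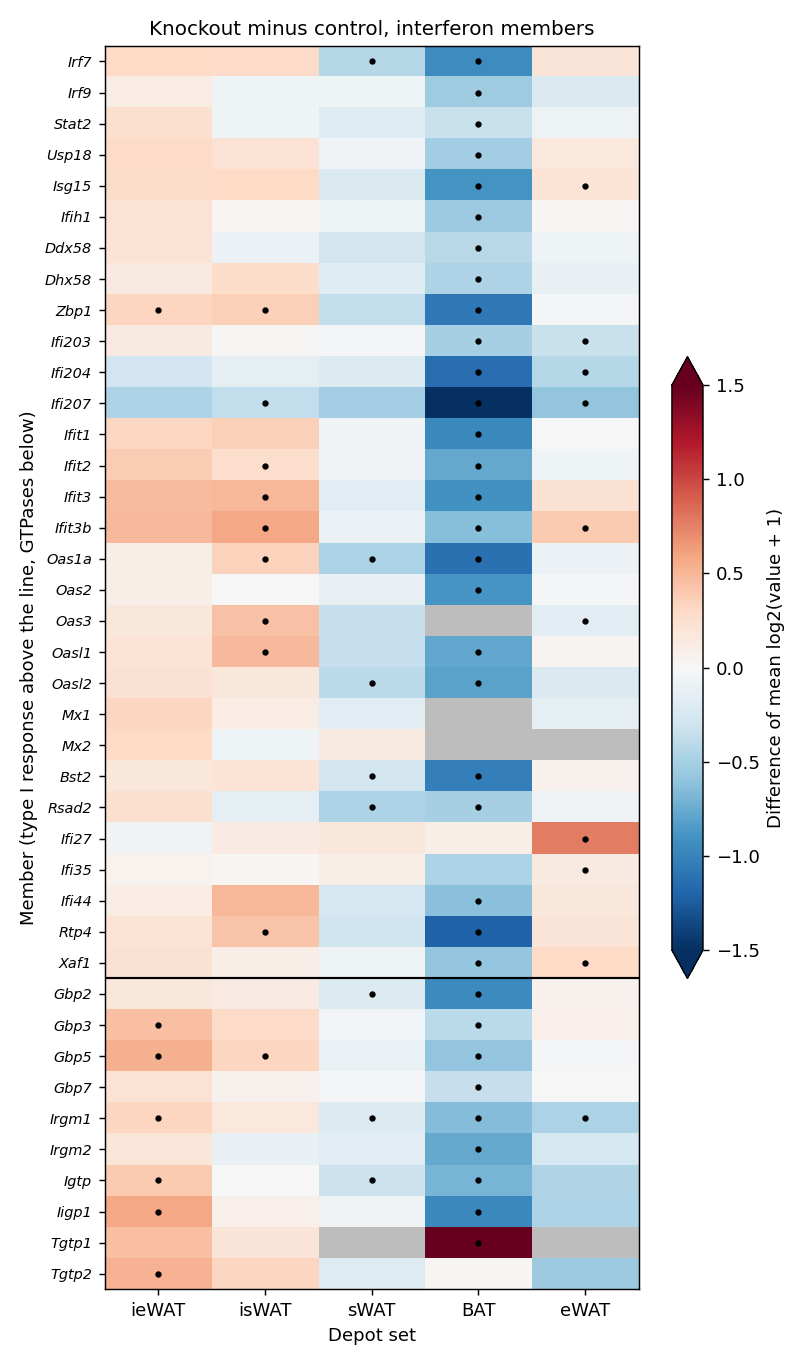
Log2 difference (knockout minus control, log2(value + 1) scale) for the 40 members in the 5 sets; red is higher and blue lower in knockouts, grey was not tested, and dots mark groups whose libraries do not overlap. In BAT 34 of 37 tested members are below 0, and in ieWAT 37 of 40 are above 0.

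The tests passed few members. In ieWAT limma called 0 at an adjusted p under 0.05 (0% of genes), edgeR and DESeq2 called 0, and 7 were higher at an unadjusted p under 0.05 (2%) with 0 lower (0.617%). In isWAT limma called 0 (0.00701%), with 6 higher (3.98%) and 1 lower (9.13%) at an unadjusted p under 0.05. edgeR called 0 there and DESeq2 called 2, Ifit3b and Rtp4, both higher (1.91%). In sWAT limma called 0 (0.0217%), edgeR and DESeq2 called 0, and at an unadjusted p under 0.05 8 were lower (7.72%) and 0 higher (1.93%). In BAT limma called 0 (0.00755%), with 30 lower (16.8%) and 1 higher (2.32%) at an unadjusted p under 0.05. edgeR called 0 in BAT and DESeq2 called 9 (5.97%): Bst2, Gbp2, Ifi204, Ifi207, Ifit1, Irf7, Oas1a and Rtp4 lower and Tgtp1 higher. In eWAT limma called 4 (14.9%), Ifi27 and Xaf1 higher (10.2%) and Ifi204 and Ifi207 lower (4.7%), and at an unadjusted p under 0.05 4 were higher (18.9%) and 4 lower (15%).

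The median type I gene differed on the log2 scale by 0.21 in ieWAT and 0.19 in isWAT, by -0.19 in sWAT and -0.77 in BAT, and by -0.03 in eWAT. In the same order the median GTPase differed by 0.42, 0.14, -0.17, -0.62 and -0.27, and the median of all genes tested by 0.02, -0.03, -0.05, -0.18 and -0.02. Both classes thus lay on the same side of all genes in each CPM set. In eWAT the medians relative to all genes were -0.24 for the GTPases and -0.0037 for the type I genes. Scaling BAT by trimmed mean of M-values (TMM) moved the median of all genes from -0.18 to 0.00, and the type I median relative to all genes was -0.58 before and -0.59 after.

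**Figure D2:**
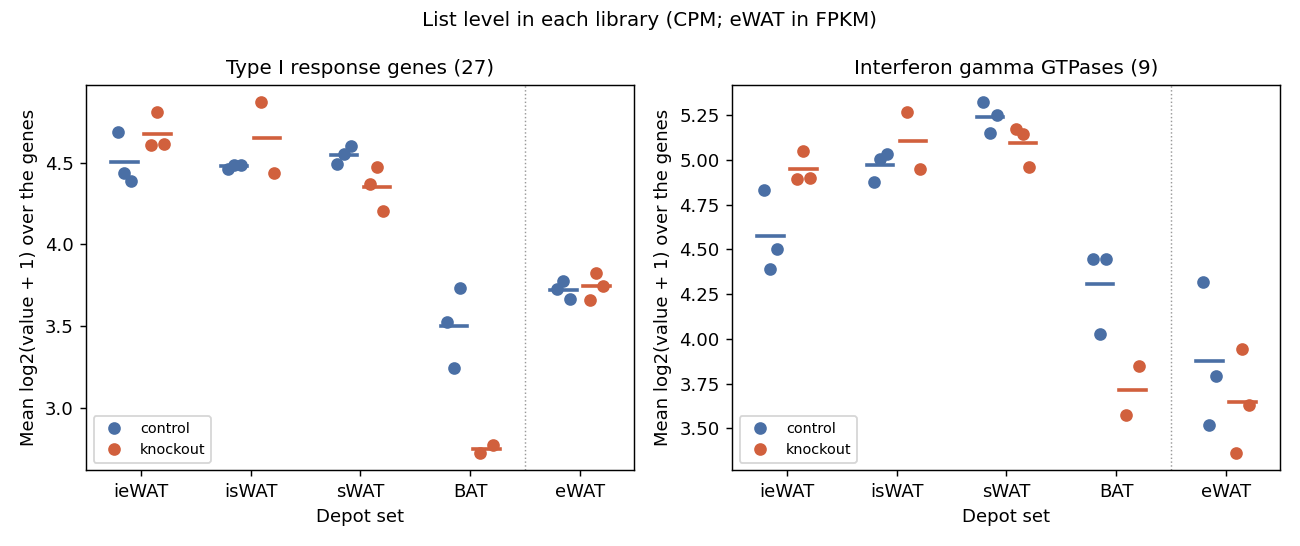
Mean log2(value + 1) per library over the 27 type I genes and over the 9 GTPases tested in all 5 sets, with bars at the group means; values are CPM except in eWAT (FPKM). In BAT both knockouts lie below all 3 controls in both classes, and in isWAT knockout 1 lies above the other 4 libraries.

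Leaving out single libraries moved these medians. In isWAT, knockout 1 was the highest of 5 libraries for 25 of 30 type I genes and 8 of 10 GTPases, and for 21.3% of all genes. The mean log2 level of the type I genes was 4.59 in that library, 4.15 in knockout 2 and 4.18 to 4.21 in controls. Without knockout 1 their median difference was -0.042 and that of the GTPases 0.0096, and without knockout 2 they were 0.42 and 0.28. In ieWAT, knockout 2 was highest for 20 of 30 type I genes and 6 of 10 GTPases (18.7% of all genes). The type I median of 0.21 was 0.14 without that library and 0.33 without control 1. In sWAT, knockout 3 was lowest for 18 of 30 type I genes and 7 of 9 GTPases (23.1% of all genes), and without it the GTPase median went from -0.17 to -0.016 and the type I median from -0.19 to -0.11. In eWAT the GTPase median of -0.27 was 0.024 without control 1 and -0.13 without knockout 1.

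Among the regulators, Irf7, the factor that amplifies interferon production, had its clearest differences in the constitutive sets. In sWAT Irf7 stood at 36.1, 38.9 and 39.8 CPM in controls and 26.2, 31.8 and 26.97 in knockouts, every knockout below every control (log2 difference -0.42 ± 0.09 SE, limma adjusted p 0.447). In BAT it stood at 14.4, 11.4 and 15.6 against 6.65 and 6.62 (-0.94 ± 0.17, adjusted p 0.237), again without overlap. In ieWAT the controls held 34.3, 33.5 and 30.8 CPM and the knockouts 38.5, 54.0 and 32.5 (0.30 ± 0.18, adjusted p 1). In isWAT they held 48.9, 49.0 and 40.9 against 71.0 and 45.0, so that knockout 1 alone exceeded the controls. In eWAT the groups overlapped, at 14.2, 12.2 and 9.996 FPKM against 11.9, 15.4 and 14.4. Irf7 was 1 of 8 members lower without overlap in sWAT (12.3% of genes), and none was higher (3.8%).

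Isg15, a ubiquitin-like modifier, was 6.31, 5.08 and 6.97 CPM in BAT controls and 2.34 and 3.34 in knockouts (-0.89 ± 0.21, adjusted p 0.237). In eWAT it was 9.92, 9.59 and 10.9 FPKM in controls and 11.5, 12.7 and 11.5 in libraries labelled knockout, just apart and higher (0.21 ± 0.08, adjusted p 0.130). Its groups overlapped in ieWAT (5.63 to 10.52 CPM), isWAT (8.69 to 14.4) and sWAT (9.05 to 12.3). Stat2, the STAT of the type I complex, differed by 0.25 in ieWAT and -0.07 in isWAT, by -0.19 in sWAT and -0.33 in BAT, and by -0.08 in eWAT. Usp18, which removes Isg15 from proteins and restrains the receptor, differed by 0.28 in ieWAT and -0.52 in BAT. All 5 regulators were lower without overlap in BAT, among 33 such members, 25 type I genes and 8 GTPases (38.1% of genes). With TMM scaling 23 type I genes and 8 GTPases were so placed (19% of genes), and 1 of each class was higher (18.3%).

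**Figure D3:**
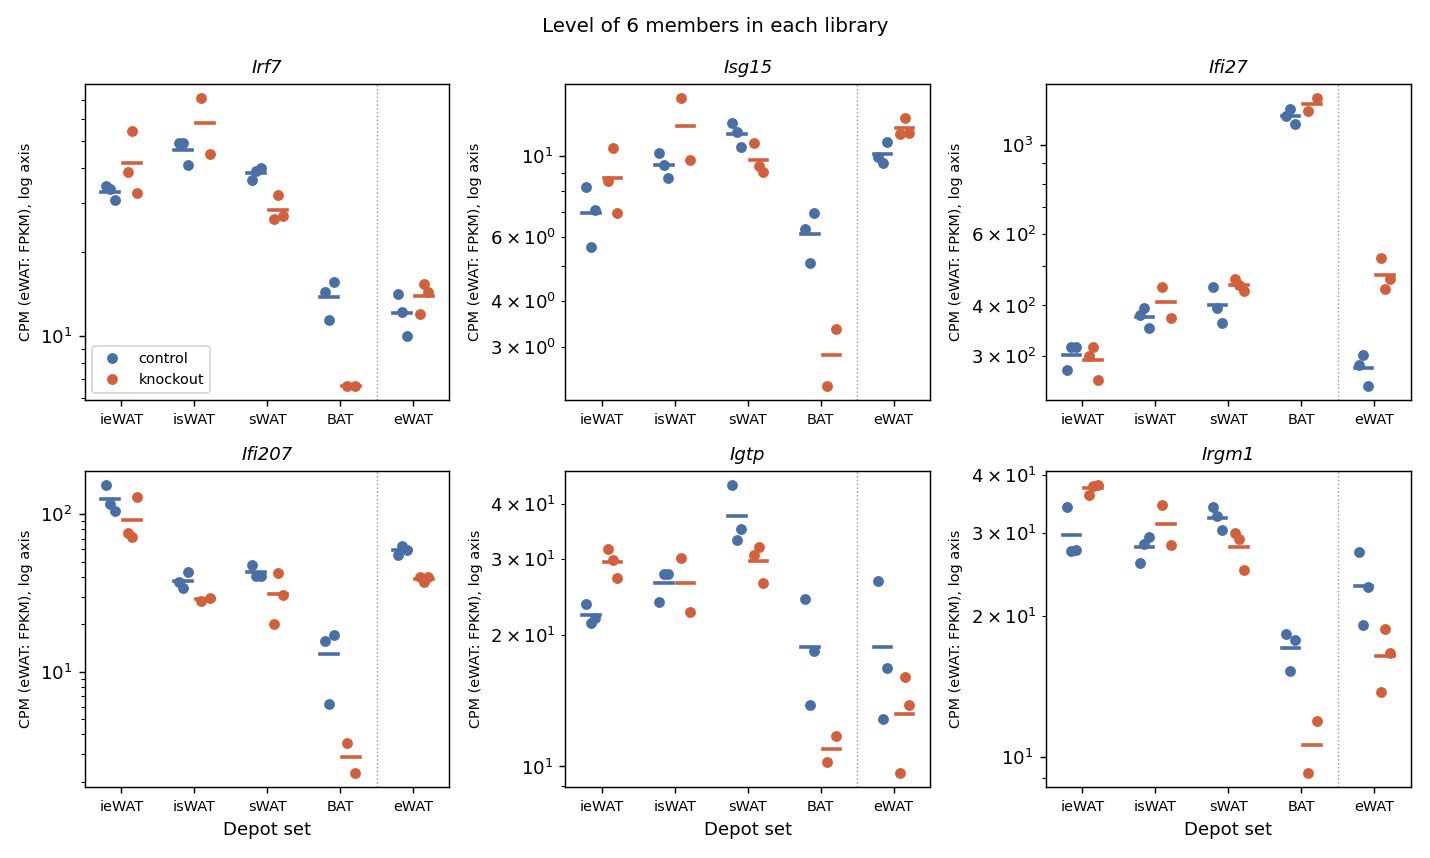
Level of 6 members in every library, on log axes, with bars at the group means; values are CPM except in eWAT (FPKM). In BAT the knockouts of Irf7, Isg15, Ifi207, Igtp and Irgm1 lie below the controls, and Ifi27 overlaps there and is apart in eWAT.

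Among the sensors, 2 members of the Ifi200 family, which bind DNA, were called lower in eWAT (4.7% of genes). Ifi207 went from 54.9, 62.9 and 59.4 FPKM in controls to 39.7, 36.9 and 39.96 in libraries labelled knockout (log2 difference -0.59 ± 0.08, limma adjusted p 0.0122), and Ifi204 from 35.9, 42.6 and 39.2 to 26.9, 30.8 and 28.7 (-0.43 ± 0.09, adjusted p 0.0292). No library labelled knockout reached a control value for either gene, and neither gene was called without knockout 3 or in a second eWAT table. In isWAT Ifi207 was 36.9, 33.8 and 42.7 CPM in controls and 28.3 and 29.3 in knockouts (-0.37 ± 0.11, adjusted p 0.314), the 1 member lower without overlap there (19.4% of genes). In BAT it had the most negative difference of the members, 15.6, 6.27 and 17.2 against 3.51 and 2.27 (-1.76 ± 0.45, adjusted p 0.237). The groups overlapped in ieWAT, at 153, 116 and 105 CPM against 76.3, 71.2 and 129 (-0.47 ± 0.25, adjusted p 1), and in sWAT, at 47.8, 40.5 and 40.3 against 20.2, 42.1 and 30.5 (-0.51 ± 0.25, adjusted p 0.551).

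Macrophage markers (Adgre1, Cd68, Csf1r, Mrc1, Cd163, Itgam and Lyz2, 7 of 7 tested in each set) varied beside Ifi207 in some sets and not in isWAT. Their mean log2 level in eWAT was 7.49, 7.81 and 7.87 in controls and 7.41, 6.997 and 7.22 in libraries labelled knockout, and 3 of the 7 fell (4.7% of genes), Adgre1 (-0.66 ± 0.16, adjusted p 0.0391), Mrc1 and Lyz2. Cd163 went the other way in eWAT, with overlap (0.86 ± 0.34, adjusted p 0.130), and in sWAT, apart (0.65 ± 0.19, adjusted p 0.447). In isWAT, where Ifi207 was lower without overlap, their mean was 6.302 to 6.529 in controls and 6.305 to 6.578 in knockouts. In ieWAT the mean of the 7 was 8.31, 8.60 and 7.99 against 8.02, 7.63 and 8.79, highest in knockout 3, the knockout with the most Ifi207. Among the ieWAT controls the orders differed, with the markers highest in control 2 and Ifi207 highest in control 1. In sWAT the mean was 7.14, 7.09 and 6.92 against 6.26, 7.17 and 6.66, and the 3 knockouts had the same order for Ifi207. In bulk tissue fewer cells of a type and less RNA per cell cannot be told apart, and the part of these cells in the result was not tested.

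Zbp1, a sensor of Z-form nucleic acid, was apart and higher in both inducible sets. In ieWAT it was 11.7, 9.83 and 10.3 CPM in controls and 13.3, 14.2 and 12.997 in knockouts (0.32 ± 0.13, adjusted p 1), and in isWAT 7.30, 7.82 and 7.72 against 10.53 and 9.53 (0.36 ± 0.11, adjusted p 0.318). In BAT it was 2.97, 0.941 and 4.51 against 0.861 and 0.468 (-1.08 ± 0.45, adjusted p 0.266), with control 2 close to the knockouts. Only controls 1 and 3 reached the 1 CPM needed for the test there. The RNA helicases Ddx58 (RIG-I), Ifih1 and Dhx58 differed by 0.20, 0.21 and 0.14 in ieWAT and by -0.42, -0.55 and -0.46 in BAT. The groups of all 3 helicases overlapped in the 4 white fat sets and were apart and lower in BAT (38.1% of genes).

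The antiviral effectors bind viral RNA, make oligoadenylates that activate RNase L, or block viral assembly. In ieWAT 13 of 13 lay above 0 (median 0.24), and in isWAT 11 of 13 did (0.26). In sWAT 1 of 13 did (-0.17), with 0 of 10 in BAT (-0.85) and 4 of 12 in eWAT (-0.04). Ifit1, which binds RNA lacking the cap methylation of host messages, was 7.39, 5.20 and 7.03 CPM in BAT controls and 2.77 and 2.88 in knockouts (-0.97 ± 0.20, adjusted p 0.237). In isWAT Ifit1 was 10.7, 9.09 and 10.6 against 16.7 and 10.4, with knockout 1 alone above the controls. Its groups overlapped in ieWAT (0.31 ± 0.24, adjusted p 1), sWAT (-0.05 ± 0.24, adjusted p 0.962) and eWAT (-0.01 ± 0.11, adjusted p 0.977).

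Ifit3b, a near copy of Ifit3, was 12.9, 14.3 and 12.3 CPM in isWAT controls and 24.0 and 16.8 in knockouts (0.57 ± 0.15, adjusted p 0.300), and was apart and higher in eWAT too (0.39 ± 0.16, adjusted p 0.135). Ifit3 shares 61.8% of its 31-base words with Ifit3b, so reads may be split between them. Their summed level was 49.8 to 57.0 CPM in isWAT controls and 62.0 to 99.4 in knockouts, and 10.4 to 17.0 against 6.28 to 8.29 in BAT, apart in both. In ieWAT the sum was 31.3 to 41.0 against 38.7 to 72.9, which overlap. Ifit3 and Ifit3b had ieWAT differences of 0.48 ± 0.23 and 0.48 ± 0.25 (adjusted p 1 for both).

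Of the synthetases, Oas2 was 4.66, 3.45 and 4.67 CPM in BAT controls and 2.22 and 1.47 in knockouts (-0.89 ± 0.22, adjusted p 0.237). Its groups overlapped in ieWAT (8.64 to 13.5 CPM), isWAT (8.69 to 16.5), sWAT (5.19 to 8.14) and eWAT (2.48 to 3.78 FPKM). The synthetase-like Oasl1, which restrains translation of Irf7, was 5.19, 4.53 and 5.37 CPM in isWAT controls and 8.51 and 6.48 in knockouts (0.49 ± 0.15, adjusted p 0.314). It was among 9 members apart and higher in isWAT (12.2% of genes), of which 6 were effectors: Ifit2, Ifit3, Ifit3b, Oas1a, Oas3 and Oasl1.

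In sWAT 4 effectors were apart and lower (12.3% of genes). Rsad2 (viperin), which makes a chain-terminating nucleotide, was 31.2, 30.7 and 36.9 CPM in controls and 22.2, 28.2 and 20.6 in knockouts (-0.47 ± 0.13, adjusted p 0.447). Oasl2 was 22.1, 24.1 and 20.5 against 16.3, 19.1 and 14.8 (-0.39 ± 0.11, adjusted p 0.447), and Bst2 63.2, 67.2 and 68.1 against 52.4, 60.0 and 51.9 (-0.27 ± 0.08, adjusted p 0.447). The fourth was Oas1a (-0.48 ± 0.15, adjusted p 0.447). Bst2 was apart in BAT too, at 39.4, 25.9 and 41.5 CPM against 17.3 and 16.1 (-1.02 ± 0.21, adjusted p 0.237), and overlapped in ieWAT (57.8 to 74.4 CPM), isWAT (62.5 to 94.4) and eWAT (73.4 to 90.1 FPKM). Plasmacytoid dendritic cells carry Bst2, and of 5 other markers listed for them Siglech was at most 0.944, Ccr9 at most 0.734 and Klk1 at most 0.424 in any library. Tcf4 was 121, 120.2 and 113 against 114, 102 and 100.8 CPM in sWAT, with overlap (-0.16 ± 0.08, adjusted p 0.533), and apart and lower in BAT (-0.39 ± 0.10, adjusted p 0.237). Cox6a2, also a subunit of muscle cytochrome oxidase, ranged from 0.0615 to 42.9 CPM in BAT. The part of these cells was not tested. Leaving out sWAT knockouts 2 and 3 for their muscle transcripts, a choice made after seeing the data, left 1 knockout, whose spread is assumed to be that of the controls. limma then called 4 members (4.69% of genes), Ifi207, Irf7 and Oas1a lower and Tgtp1 higher. Without knockout 2 alone it called 1, Tgtp1, higher (0.554%). In sWAT only knockouts reached the 1 CPM of Tgtp1 needed for a test.

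Of the other induced genes, Ifi27 rose in eWAT from 284, 302 and 253 FPKM to 523, 440.4 and 465 (log2 difference 0.77 ± 0.11, limma adjusted p 0.0128), a 1.70-fold ratio of means. Xaf1, an antagonist of the apoptosis inhibitor Xiap, rose from 17.5, 20.03 and 19.6 to 23.1, 24.6 and 23.4 (0.30 ± 0.08, adjusted p 0.0481). All libraries labelled knockout exceeded all controls for both genes, and for Isg15, Ifit3b and Ifi35, 5 members in all (21.6% of genes). Another 5 were apart and lower, Ifi203, Ifi204, Ifi207, Oas3 and Irgm1 (19.6%). Adipocyte markers rose beside them, 6 of 6 (10.2% of genes), with a mean log2 level of 10.08 to 10.28 against 8.63 to 9.13 in controls, as did 4 of 6 endothelial markers, at 5.00 to 5.34 against 4.35 to 4.71. Their part in the result was not tested. The calls rested on single libraries: without knockout 3 limma called 0 members (0.0855% of genes). Without control 2, knockout 1 or knockout 2 it called Ifi207 and Ifi27, without control 1 these and Ifi204, and without control 3 these and Ifi203. In the second eWAT table, in TPM, limma called 0 members (0.00848% of genes), with Ifi204 at 0.063, Xaf1 at -0.33, Ifi27 at 0.24 and Ifi207 at -0.47.

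In BAT Ifi27 was the 1 type I gene of 27 tested with a difference above 0, at 1176, 1229 and 1122 CPM in controls and 1210.2 and 1304 in knockouts (0.10 ± 0.11, adjusted p 0.626). Ifi27 and Ifi35 were the type I genes whose groups overlapped there. Rtp4, a Golgi chaperone of receptors, had the smallest p of the type I genes in BAT, at 8.38, 6.65 and 9.28 CPM against 3.08 and 2.74 (-1.21 ± 0.19, adjusted p 0.237). In isWAT Rtp4 was apart in the other direction, at 14.5, 14.4 and 14.0 CPM against 21.2 and 18.01 (0.43 ± 0.10, adjusted p 0.274).

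The BAT differences stood beside a difference in macrophage markers. All 7 of these were lower in both knockouts than in all 3 controls (38.1% of genes), with mean log2 levels of 5.46, 4.24 and 6.02 in controls and 3.25 and 3.26 in knockouts and sums of 241 to 1023 and 103 to 104 CPM. The mean log2 level of the type I genes, 3.52, 3.24 and 3.73 in controls and 2.72 and 2.77 in knockouts, put the 5 libraries in the same order. T and NK cell markers (5 of 11 tested) stood at 0.62 to 1.54 in controls and 0.31 to 0.34 in knockouts. Of these 5, 4 were apart and lower, as were 3 of 4 B and plasma cell markers and 4 of 6 endothelial markers tested (38.1% of genes). Their median differences were -0.88, -0.99 and -0.26 in this order, and that of all genes was -0.18. These marker counts were not repeated with TMM scaling. The part of these cells was not tested. Skeletal muscle markers did not follow genotype, at 5.45, 7.03 and 0.69 in controls and 0.16 and 9.28 in knockouts. Without control 2, the control with the lowest macrophage level, limma called 25 members (16.8% of genes), 24 lower and Tgtp1 higher. Leaving out control 2 and knockout 2, the libraries of each group with most muscle transcripts and a choice made after seeing the data, left 1 knockout, whose spread is assumed to be that of the controls. limma then called 19 (8.46%), 18 lower.

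Guanylate-binding proteins coat the vacuoles of intracellular microbes. Gbp5, which also promotes inflammasome assembly, was 12.98, 10.05 and 9.78 CPM in ieWAT controls and 14.5, 19.4 and 14.9 in knockouts (0.53 ± 0.17, adjusted p 1). In isWAT it was 16.2, 17.2 and 16.0 against 21.5 and 20.1 (0.32 ± 0.09, adjusted p 0.314), the 1 GTPase apart in that set. Gbp2 was apart and lower in both constitutive sets, at 114, 105 and 102 CPM against 97.8, 82.1 and 98.1 in sWAT (-0.21 ± 0.09, adjusted p 0.514) and 50.9, 33.3 and 60.6 against 23.1 and 24.5 in BAT (-0.95 ± 0.25, adjusted p 0.237). It overlapped in ieWAT (62.5 to 79.4 CPM), isWAT (88.3 to 107) and eWAT (26.3 to 44.4 FPKM). Gbp3 differed by 0.29 ± 0.14 in isWAT with overlap (adjusted p 0.428).

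The immunity-related GTPases act on the same vacuoles, and Igtp (Irgm3) is a regulator among them found on the endoplasmic reticulum and lipid droplets. In ieWAT Igtp was 23.6, 21.4 and 21.9 CPM in controls and 31.6, 29.8 and 27.1 in knockouts, apart and higher (0.39 ± 0.12, adjusted p 1). It was apart and lower in sWAT, at 44.3, 33.1 and 35.1 against 30.6, 32.0 and 26.4 (-0.32 ± 0.12, adjusted p 0.478), and in BAT, at 24.2, 13.9 and 18.5 against 10.2 and 11.8 (-0.70 ± 0.23, adjusted p 0.237). Its groups overlapped in isWAT (-0.01 ± 0.14) and eWAT (-0.45 ± 0.28). Iigp1, an effector that breaks up parasite vacuoles, had the largest difference of the members in ieWAT, 26.8, 17.1 and 19.96 CPM against 32.0, 33.9 and 29.4 (0.58 ± 0.17, adjusted p 1).

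Irgm1, a regulator that keeps the effector GTPases off the cell's own membranes, was apart in 4 of 5 sets. It was higher in ieWAT, at 34.1, 27.5 and 27.6 CPM in controls and 36.2, 37.9 and 38.0 in knockouts (0.33 ± 0.12, adjusted p 1). It was lower in sWAT, at 34.1, 32.6 and 30.4 against 30.0, 29.2 and 25.1 (-0.20 ± 0.09, adjusted p 0.525), in BAT, at 18.3, 15.2 and 17.7 against 9.23 and 11.9 (-0.65 ± 0.16, adjusted p 0.237), and in eWAT, at 27.3, 19.1 and 23.0 FPKM against 13.8, 18.8 and 16.6 (-0.47 ± 0.16, adjusted p 0.0901). In isWAT its groups overlapped (0.15 ± 0.11, adjusted p 0.571). Of all genes, 3.43% were apart and higher in ieWAT, and 12.3% were apart and lower in sWAT, 38.1% in BAT and 19.6% in eWAT. Irgm2 was 23.6, 16.2 and 22.8 CPM in BAT controls and 10.95 and 12.4 in knockouts (-0.77 ± 0.19, adjusted p 0.237). The gene models of Igtp and Irgm2 overlap on the plus strand (chr11:58199556-58207591 and chr11:58199618-58222782, GENCODE M21), so their reads may not all be separable. Their sum was 53.9 to 68.2 CPM in ieWAT controls and 67.8 to 74.9 in knockouts, which overlap, and 30.1 to 47.8 against 21.2 to 24.2 in BAT, which do not.

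Lymphocyte markers varied beside the GTPases. In ieWAT 6 GTPases (Gbp3, Gbp5, Irgm1, Igtp, Iigp1 and Tgtp2) and Zbp1 were the 7 members apart and higher (3.43% of genes), and none was apart and lower (1.68%). T and NK cell markers (10 of 11 tested) had mean log2 levels of 2.40, 1.73 and 1.64 in controls of that set and 2.87, 2.54 and 2.75 in knockouts, with sums of 23.8 to 57.3 and 57.4 to 75.8 CPM. B and plasma cell markers (6 of 6) stood at 5.57, 4.05 and 3.28 and 6.32, 5.47 and 6.32. In eWAT, control 1 was highest of 6 libraries for 9 of 9 GTPases (13.2% of all genes), and its T and NK level was 3.27 against 1.19 to 2.19 in the others. Tgtp2 was 18.5 FPKM in that control and 5.63 to 10.8 in the other 5 libraries. Without it the GTPase median relative to all genes went from -0.24 to 0.05. In isWAT the T and NK level was lower in knockouts (1.56 and 1.36 against 1.69, 1.66 and 1.84), while 8 of 10 GTPases lay above 0. The part of these cells was not tested.

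**Figure D4:**
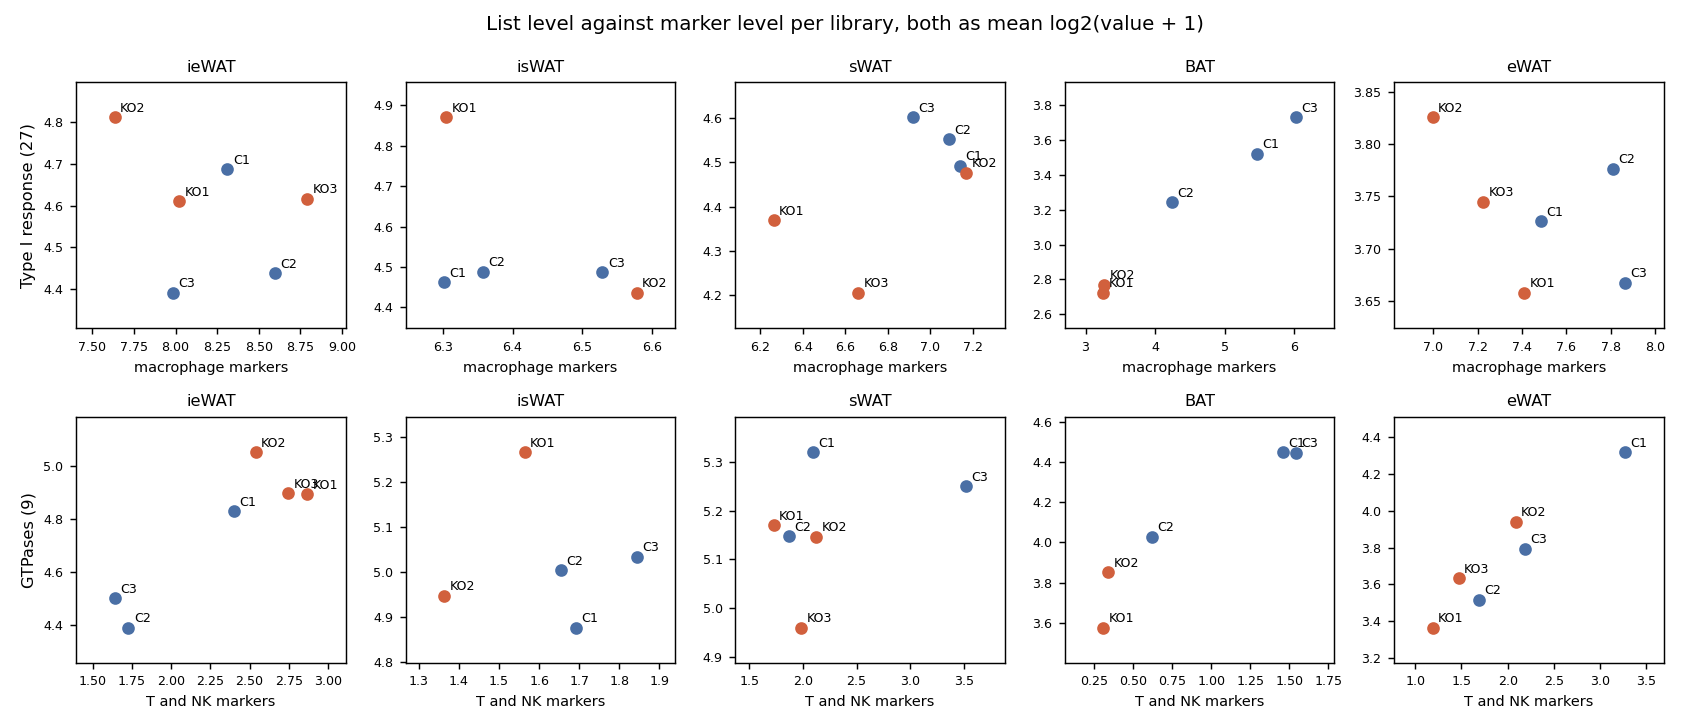
Mean log2(value + 1) per library of the type I genes against macrophage markers (upper panels) and of the GTPases against T and NK cell markers (lower panels), by set. In BAT the 5 libraries have the same order on both upper axes, and in eWAT control 1 is highest on both lower axes.

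Tgtp1 had another pattern than its near copy Tgtp2, with which it shares 83.2% of its 31-base words, so that reads may be assigned to either. In BAT Tgtp1 had 13, 2 and 4 reads in controls and 76 and 96 in knockouts, or 0.612, 0.125 and 0.210 CPM against 4.68 and 6.42 (2.32 ± 0.25, adjusted p 0.136), the 1 member apart and higher there (6.37% of genes). Only its knockouts reached the 1 CPM needed for the test, so it was tested because it was high in them. Tgtp2 overlapped in BAT at 14.8 to 22.1 CPM, and so did the sum of the pair, 16.1 to 20.6 in controls and 19.4 to 28.5 in knockouts. In the other CPM sets Tgtp1 ranged widely within groups. In ieWAT it was 4.69, 0.190 and 3.14 CPM in controls and 4.15, 13.1 and 0 in knockouts, where the 0 reads of knockout 3 allow a level of up to 0.0688 CPM. In isWAT it was 4.45, 0.0521 and 6.70 against 13.2 and 0.144. In sWAT it had 1, 3 and 4 reads in controls and 131, 1 and 60 in knockouts, too few for the test. Tgtp2 stayed within 10.996 to 20.9 CPM in ieWAT, and in isWAT was 17.6, 19.9 and 20.9 against 29.55 and 20.2 (0.32 ± 0.16, adjusted p 0.439).

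**Figure D5:**
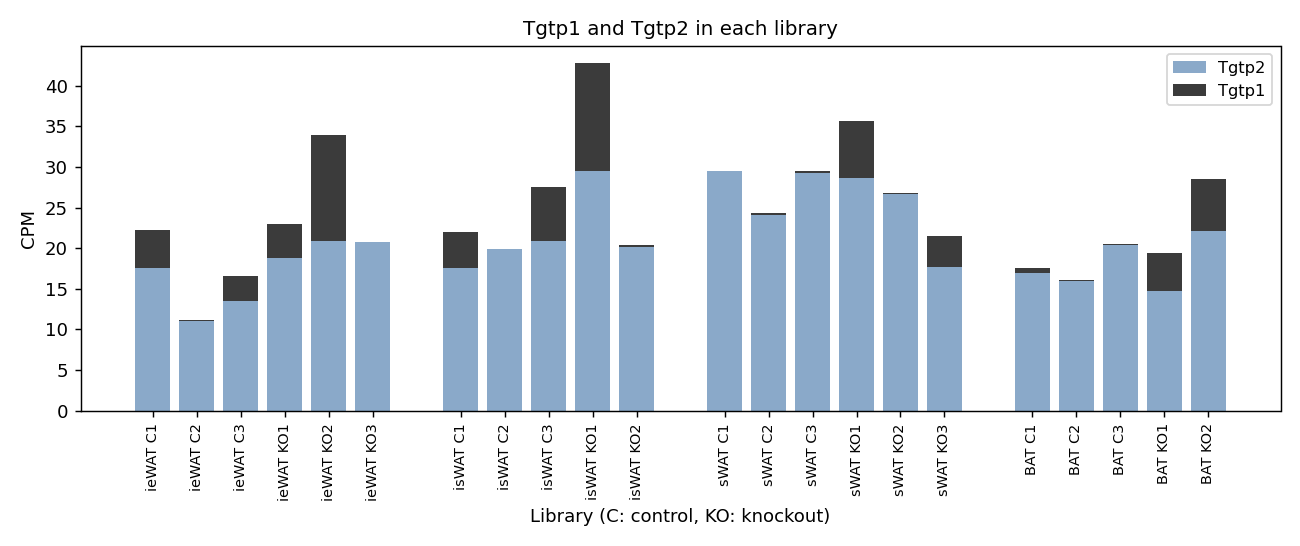
Stacked bars, from 0, of Tgtp2 (pale) and Tgtp1 (dark) in CPM for each library of the 4 CPM sets. The dark part runs from 0 to 13.2 CPM among libraries.

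Transcripts of the interferons themselves were close to absent. Of 20 interferon genes with a row in a CPM table, 16 had no read in any of the 16 libraries of isWAT, sWAT and BAT. Those 16 genes had no row in ieWAT, so their level there is unknown. Ifnb1 had at most 1 read, in 2 of 22 libraries, and Ifng at most 7 reads (0.314 CPM), with a read in 19 of 22. Of 6 receptor genes, 5 were tested in every set, and Ifnlr1, for the lambda interferons, stayed at or below 0.971. Ifnar1 was 90.1 to 108 CPM in ieWAT controls and 83.6 to 111 in knockouts (-0.02 ± 0.14), and 37.7, 35.3 and 45.5 against 28.3 and 30.6 in BAT (-0.40 ± 0.14, adjusted p 0.239). Ifngr1 differed by -0.55 ± 0.22 in BAT with overlap.

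Irf1, a transcription factor induced early by interferon gamma, was 66.7, 64.9 and 61.3 CPM in ieWAT controls and 93.5, 75.6 and 73.2 in knockouts (0.32 ± 0.13, adjusted p 1). It was apart and lower in sWAT (-0.30 ± 0.10, adjusted p 0.453) and BAT (-0.48 ± 0.15, adjusted p 0.237). The T cell attractant Cxcl9, a target of interferon gamma, was 96.2, 78.7 and 80.9 CPM in sWAT controls and 48.8, 68.9 and 61.4 in knockouts (-0.52 ± 0.14, adjusted p 0.447). In ieWAT Cxcl9 was 29.1, 24.2 and 31.3 against 43.2, 51.5 and 30.5, with knockout 3 within the controls (0.52 ± 0.20, adjusted p 1).

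Of the pathway genes outside the 40, 82 were tested in ieWAT, isWAT and sWAT, 70 in BAT and 75 in eWAT. limma called 0 in each CPM set and, in eWAT, 1 higher and 12 lower, where it called 10.2% of all genes higher and 4.7% lower. The eWAT calls over all genes went from 2041 to 12 without knockout 3 and to 1 in the TPM table. The 6 with the smallest p in eWAT began with Ptpn6, the phosphatase Shp1 of blood cells, which fell from 89.9, 64.0 and 83.5 FPKM to 47.0, 41.8 and 36.6 (-0.90 ± 0.15, adjusted p 0.0166). The endosomal RNA receptor Tlr7 (-0.72 ± 0.13, adjusted p 0.0173), the DNA sensor Aim2 (-0.68 ± 0.13, adjusted p 0.0204), the Irf2 cofactor Irf2bp2 (-0.47 ± 0.10, adjusted p 0.0279) and the kinase Tbk1 (-0.38 ± 0.08, adjusted p 0.0318) fell too. Ifi27l2a, a relative of Ifi27, rose from 1458, 1222 and 885 FPKM to 2057, 3424 and 3839.9 (1.37 ± 0.28, adjusted p 0.0266). Of 18 other targets of interferon gamma tested in eWAT, 7 lay above 0 and the median was -0.06.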

How the data were processed

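RNA-seq tables of 5 adipose sets were used, 6 of the 7 deposited tables. Per the labels' protocols, RNA was extracted with a Qiagen kit and sequenced on a HiSeq2000 with 50 cycles. Per the submitters' processing notes, the authors' tools included Salmon, DESeq2 1.38.3, MultiQC and FastQC; the sources used here name no genome build or annotation. The deposited BAT, sWAT, isWAT and ieWAT tables, headed FPKM, hold CPM: each library sums to 1000000 and its values are whole multiples of 1 read (tolerance 0.01, at least 99.99% of values). The deposited eWAT table holds FPKM per the file headers, and a second deposited eWAT table, used as an alternative, holds TPM per the file headers.

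Genes reaching 1 in at least the number of libraries of the smaller group were tested per set with limma 3.58.1 (R 4.3.3) on log2(value + 1), with Benjamini-Hochberg adjustment over all genes and a threshold of 0.05. Fold differences are on that scale, which understates changes of low genes. Reads recovered from CPM were tested with edgeR 4.0.16 and DESeq2 1.42.0 as alternatives, which also covered pseudocounts of 0.5 and 0.1, low-value filters, TMM scaling, a replicate block and each library left out. Of all genes, edgeR called 0 in ieWAT, 1 in isWAT, 3 in sWAT and 0 in BAT. The fits were tested on simulated data. Where groups have 3 and 3 libraries an exact permutation test cannot go below 0.1, and with 3 and 2 below 0.2, so none is given for single genes. The members and gene lists were chosen with earlier results of these data known. Members named per set by rule were those past the threshold, the 4 type I genes and 3 GTPases with the smallest unadjusted p, and Irf7, Stat2, Isg15, Ifit1, Oas2, Bst2, Gbp2, Irgm1 and Igtp. The other members, and some values outside the rule's set, were described by role with their values seen. The values of 1 of the pathway genes outside the members are not reported here. Symbols were matched by Ensembl identifier (96.04% of ieWAT and 92.01% of other identifiers), promoters are from RefSeq, and exon lengths from GENCODE M21.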

Additional observations from a re-analysis of the deposited data

Results flagged for a closer look

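Among members named by rule in both of 2 sets, several had groups without overlap in both and in opposite directions. Other members, such as Zbp1 and Ifit3b, were also apart in opposite directions and are not listed. The share of all genes so placed was not computed. Of all genes, 38.1% were apart and lower in BAT, 12.3% in sWAT and 19.6% in eWAT. Those apart and higher were 3.43% in ieWAT, 12.2% in isWAT and 21.6% in eWAT. The values below are differences between the log2 changes of 2 sets, the second subtracted from the first, and none of these differences was tested. For Isg15 the change in BAT minus that in eWAT was -1.10. For Rtp4 the change in isWAT minus that in BAT was 1.64. Irgm1 was higher in ieWAT knockouts and lower in 3 other sets, and its ieWAT change exceeded that in sWAT by 0.53, that in BAT by 0.98 and that in eWAT by 0.80. Igtp, with its overlapping neighbour Irgm2, exceeded its sWAT change by 0.71 and its BAT change by 1.08 in ieWAT. The mean log2 level of the 9 GTPases tested in all 5 sets behaved likewise, with an ieWAT change 0.97 above the BAT change. That list leaves out Tgtp1. Over all 10 GTPases the ieWAT groups overlapped, at 3.98 to 4.60 in controls and 4.41 to 4.93 in knockouts. The ieWAT and isWAT knockouts were inducible and the sWAT and BAT knockouts constitutive, so that depot and knockout form cannot be told apart in these pairs; for eWAT the form is not stated.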

How the results depend on the processing

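Of 222 list values under all alternatives, 202 kept their place, as did 912 of 996 single-member values. Of the latter, 31 changed sign. A list median kept its place if it moved by less than the spread between libraries, even where its sign changed. The eWAT GTPase median, -0.27 and 0.024 without control 1, was counted so. A count of called members kept its place within a small factor, such as 3 in place of 4 in eWAT. A single member kept its place with the same sign and the same side of the threshold. The causes were not tested. Counts of members called: isWAT 2 with DESeq2; sWAT 0 to 1 with single libraries left out (1 without knockout 2) and 4 without knockouts 2 and 3; BAT 1 with no filter on low values, 9 with DESeq2, 0 to 25 with single libraries left out (25 without control 2) and 19 without control 2 and knockout 2; eWAT 2 with no filter, 0 in the TPM table and 0 to 3 with single libraries left out (0 without knockout 3). The numbers of all genes called moved as well: with DESeq2 BAT went from 1 to 791, sWAT from 3 to 52, isWAT from 1 to 273 and ieWAT from 0 to 32. In sWAT they were 120 without knockout 1, 78 without knockout 2 and 681 without knockouts 2 and 3, in BAT 2201 without control 2, in isWAT 12 without control 2, and in eWAT, from 2041, 544 with no filter, 12 without knockout 3, 12 to 1819 with any 1 library left out and 1 in the TPM table. Medians with single libraries left out ran from -0.042 (without knockout 1) to 0.42 (without knockout 2) for type I genes in isWAT and from -0.22 to -0.016 (without knockout 3) for GTPases in sWAT. Without the muscle-rich libraries, a choice made after seeing the data, the GTPase median was -0.0451 in sWAT and -0.91 in BAT. In the TPM table the eWAT type I median was 0.47, with all genes at 0.65, and Ifi204 was 0.063, Xaf1 -0.33 and Stat2 0.93.

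Leaving out single libraries turned the sign of small differences, which then ran from -0.058 to 0.21 for Oas2 in ieWAT. In isWAT they ran from -0.034 to 0.61 for Irf7, -0.24 to 0.11 for Stat2, -0.41 to 0.42 for Oas2, -0.013 to 0.42 for Bst2 and -0.20 to 0.19 for Igtp. In sWAT they ran from -0.28 to 0.22 for Ifit1 and -0.25 to 0.025 for Oas2. In eWAT they ran from -0.056 to 0.063 for Ifit1, -0.15 to 0.075 for Oas2, -0.012 to 0.13 for Bst2 and -0.10 to 0.27 for Gbp2. Igtp in isWAT was 0.019 with TMM scaling, 0.0280 with edgeR and 0.0283 with DESeq2, and Ifit1 in sWAT was 0.0505 with edgeR and 0.0494 with DESeq2, or 0.41 without knockouts 2 and 3.

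Whether replicate numbers pair the libraries is not known. Same-numbered libraries did not deviate together in every pair of any set, which cannot decide it with 2 or 3 libraries a group. With the replicate number as a block, eWAT had 0 called members (0% of genes), and Oas2 was -0.044 and Igtp 0.026 in isWAT. The block left the count at 0 in the 4 CPM sets. In those sets limits come from 2 or 3 libraries a group, and in eWAT depth is unknown.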
